A study of Mus musculus with 12 samples.

Results

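Transcript levels were compared between NIH3T3 cells carrying Tead2-VP16 at high cell density and NIH3T3 cells carrying a control vector at complete confluency. The comparison used 4 of the 12 arrays of the study, chosen by their titles, with 2 arrays in each group. NIH3T3 is an established mouse fibroblast line, and every group had been infected with virus to carry its construct. The Tead2-VP16 cells were still proliferating and were taken a little above the density at which normal cells are confluent, which is called high density here. The control cells were completely confluent. Density was therefore not matched, and in this comparison the effect of Tead2-VP16 and that of density cannot be told apart. Groups of 2 arrays each from the same study were set beside it: Tead2-VP16 at complete confluency, which matches the density of the control, Yap at high density, which matches the density of the Tead2-VP16 cells, and control vector at low density (30% confluency). Tead2-EnR cells at low density entered only the choice of probe sets and the estimate of the spread, apart from a level given for Mycn. Whether replicate arrays stem from separate cultures is not stated in the labels, so p-values measure only the spread between these arrays, which may be technical. The promoter that drives the constructs and the clonality of the cells are not given in the sources used here.

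Tead factors are DNA-binding transcription factors that activate little by themselves and need a coactivator such as Yap. In dense cultures the Hippo kinases phosphorylate Yap and hold it in the cytoplasm, and this is one way in which contact between cells limits growth. VP16 is a strong viral activation domain, and fused to Tead2 it activates Tead-bound genes without Yap. Fibroblasts that reach confluency stop dividing, build extracellular matrix and raise growth-arrest genes.

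Levels are log2 of the deposited intensity, with 1 probe set for each of 18193 genes, and the median gene lay at 6.87. A fold change is on the log2 scale unless it is called a fold, and genes with an adjusted p below 0.05 in limma's moderated test are those said to rise or fall. Array medians lay between 51.9 and 53.7 on the intensity scale, and precision is limited by the number of arrays. The spiked poly-A controls of the labelling reaction were at 8.38 and 8.48 (mean log2 level) in the Tead2-VP16 arrays against 8.61 and 8.81 in confluent control. The transferrin receptor control, whose 3′ end minus its 5′ end is a sign of RNA integrity, stood at 1.23 and 1.23 against 1.17 and 1.44. Their part in the results was not tested. Of 9 fibroblast markers, 8 lay above the median gene. None of 7 endothelial markers did, and 1 of 7 adipocyte, 3 of 8 macrophage, 2 of 8 epithelial and 1 of 8 skeletal muscle markers did. Between Tead2-VP16 at high density and confluent control 4 of the 9 fibroblast markers fell and 0 rose, against 13.7% and 13.2% of all genes. Of these markers 2 to 3 fell without any 1 array.

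In the comparison, 2408 genes rose (13.2% of all tested) and 2485 fell (13.7%) in Tead2-VP16 cells at high density. Of called genes 49.2% were higher, or 57.7% with arrays centred on their medians. Few of these changes were large, since 99 genes rose and 119 fell by at least 2-fold. Of the pathway lists described here, cholesterol synthesis had 18 of 20 members higher and 0 lower. Ribosome biogenesis and Myc genes had 26 of 31 higher and 1 lower, and actin and SRF genes 22 of 33 higher and 1 lower. Growth-arrest genes had 19 of 25 lower and 2 higher, and small leucine-rich proteoglycans 8 of 11 lower and 0 higher. The median difference over all genes was 0.0099. The largest named rises were in Prkg2, Actg2, Ccl2, Tagln and Id1, and the largest falls in Postn, Lum, H1f2, Adamts1 and Sned1.

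**Figure D1:**
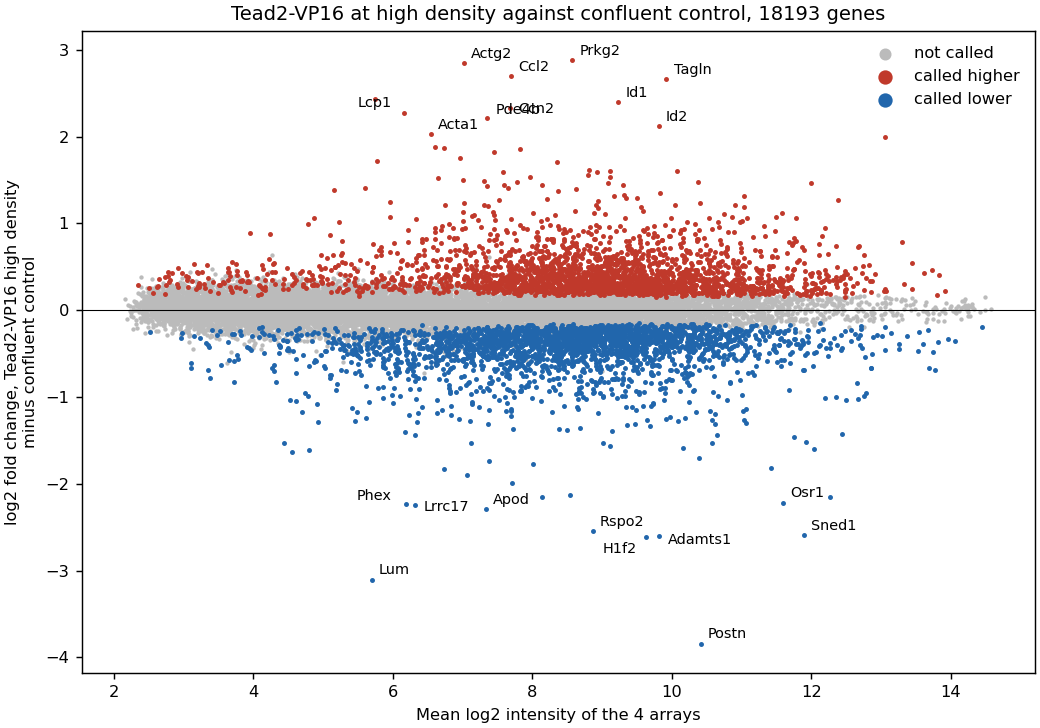
Each point is a gene, with its mean log2 intensity over the 4 arrays on the horizontal axis and the log2 fold change of Tead2-VP16 at high density minus confluent control on the vertical axis, and called genes are coloured. The 20 labelled genes reach from 2.88 (Prkg2) to -3.84 (Postn), and most called genes lie within 1 log2 unit of 0.

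Tead2 itself was not higher in the cells that carry the fusion. Its log2 level was 9.41 and 9.23 in the Tead2-VP16 arrays and 9.87 and 9.896 in confluent control, a fall by 0.56 (SE 0.066, adjusted p = 1.94e-04). Both Tead2-VP16 arrays lay below both controls, and 60.7% of all genes had arrays separated in this way, in either direction. At complete confluency Tead2-VP16 and control differed by -0.12 (adjusted p = 0.2984). Which bases of Tead2 the probe set covers is not given in the sources used here, so these values do not test whether the fusion was made. Yap1 was at 9.63 and 9.67 against 9.95 and 9.98 and fell by 0.31 (adjusted p = 0.0016), on 1 of its 2 probe sets. Among 27 Tead factors, Vestigial-like cofactors and Hippo components, 4 rose and 6 fell, with a median of -0.04. Over all genes 13.2% rose and 13.7% fell, and the number that rose is near that share. Tead4, a further Tead factor, rose by 1.09 (adjusted p = 9.63e-06), and Ajuba, a LIM protein that restrains Lats kinases, rose by 0.71. Frmd6, an upstream Hippo component, fell by 0.69. Without control replicate 1, or without Tead2-VP16 replicate 1, 2 members rose.

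Of 22 Yap/Tead targets, 7 rose and 6 fell, and the median difference was -0.004. The list thus did not move one way. The promoters of Ankrd1 and Ccn1, a pair of targets called higher here, are shown because each holds the Tead motif GGAATG on 1 of the strands (in capitals) within 250 bases before the gene start. They come from RefSeq (GRCm38.p6), at chr19:36119845-36120094 and chr3:145649986-145650235, both on the minus strand.
Ankrd1: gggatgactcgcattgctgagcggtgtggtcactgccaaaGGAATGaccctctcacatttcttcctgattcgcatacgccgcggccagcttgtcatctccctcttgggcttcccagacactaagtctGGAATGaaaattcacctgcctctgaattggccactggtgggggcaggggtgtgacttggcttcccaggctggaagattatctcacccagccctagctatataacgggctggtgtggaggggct
Ccn1: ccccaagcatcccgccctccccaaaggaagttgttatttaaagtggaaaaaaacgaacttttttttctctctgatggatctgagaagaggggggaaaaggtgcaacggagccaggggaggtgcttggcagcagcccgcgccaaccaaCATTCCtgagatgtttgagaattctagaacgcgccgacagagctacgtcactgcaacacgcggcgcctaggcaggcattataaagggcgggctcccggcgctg
The motif was found in 6 of the 15 targets with a promoter in the table (40%), against 13.4% of 14452 measured genes, and a match is a description of letters only. Ccn2, the matricellular factor also named connective tissue growth factor, was at 8.85 and 8.84 in the Tead2-VP16 arrays and at 6.31 and 6.71 in confluent control. Both Tead2-VP16 arrays lay far above both controls, 5.04-fold higher on average (log2 fold change 2.33, SE 0.11, adjusted p = 6.29e-07). Ankrd1, a nuclear ankyrin repeat protein, was at 7.69 and 7.58 against 6.91 and 7.14 and rose by 0.62 (SE 0.091, adjusted p = 7.86e-04), on both of its probe sets. Ccn1 was at 9.82 and 9.703 against 9.23 and 9.21 and rose by 0.54 (adjusted p = 8.09e-05), but its 4 probe sets disagreed: 2 were called higher and 2 lower, and their mean gave -0.29. Nuak2, a kinase of the AMPK family, rose by 0.896, and Rbms3, an RNA-binding protein, fell by 0.85.

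The CCN family of matricellular proteins, to which Ccn1 and Ccn2 belong, had 4 of 6 members higher and 1 lower. Ccn1 is counted here by its brightest probe set. Ccn4, known as a Wnt-induced secreted protein, was at 9.89 and 9.89 against 8.39 and 8.32, a 2.9-fold rise (SE 0.053 on the log2 scale, adjusted p = 1.77e-07). Ccn5 fell by 1.34 (adjusted p = 8.63e-07). Family members thus moved in both directions.

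Genes of the contractile actin cytoskeleton, many of them targets of serum response factor (SRF), moved mostly upwards. Of 33 measured members, 22 rose and 1 fell, and the median was 0.56. SRF binds the CArG box, and the promoters of Vcl and Fhl1 are shown for their CArG boxes (in capitals), from chr14:20929148-20929397 and chrX:56779433-56779682 (RefSeq, GRCm38.p6, both plus strand).
Vcl: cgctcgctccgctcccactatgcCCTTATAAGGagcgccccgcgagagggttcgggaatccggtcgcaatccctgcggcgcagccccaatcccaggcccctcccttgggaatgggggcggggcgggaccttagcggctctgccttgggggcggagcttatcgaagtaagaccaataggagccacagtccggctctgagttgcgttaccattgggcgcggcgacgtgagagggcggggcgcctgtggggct
Fhl1: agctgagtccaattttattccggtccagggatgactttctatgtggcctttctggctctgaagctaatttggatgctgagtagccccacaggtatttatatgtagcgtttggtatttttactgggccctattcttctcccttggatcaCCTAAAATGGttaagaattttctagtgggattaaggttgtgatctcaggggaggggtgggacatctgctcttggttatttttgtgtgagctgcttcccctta
In the same window before another Fhl1 start in that table no CArG box was found, and a gene was counted as holding a motif where any of its starts did. A CArG box was present in 7 of 29 list promoters (24.1%), against 1.43% of measured genes. Tagln, the smooth muscle protein transgelin, was at 11.23 and 11.28 in the Tead2-VP16 arrays and at 8.55 and 8.65 in confluent control, 6.32-fold higher (SE 0.055 on the log2 scale, adjusted p = 1.17e-08). Actg2, the enteric smooth muscle actin, was at 8.37 and 8.51 against 6.02 and 5.17 and rose 7.2-fold (adjusted p = 1.28e-05). Its control arrays lay further apart than those of most genes, yet both were below both Tead2-VP16 arrays. Acta2, vascular smooth muscle actin, was abundant in every array, at 14.07 and 14.05 against 11.996 and 12.13, and rose 3.99-fold. Vcl (vinculin, a focal adhesion protein) rose by 1.46, Tpm1 (a tropomyosin) by 1.27 and Fhl1 (a LIM-only protein of muscle) by 1.496. Acta1, skeletal muscle actin, was at 7.61 and 7.52 against 5.57 and 5.51 and rose 4.07-fold (adjusted p = 1.45e-06). Of 8 skeletal muscle markers it was 1 of 2 that rose, and 1 fell, and it was the single riser without any 1 of the 4 arrays. The mean level of that list was 5.31 to 5.41 in the Tead2-VP16 arrays and 5.12 to 5.17 in confluent control.

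Prkg2, a cGMP-dependent protein kinase, had the largest named rise, from 7.24 and 7.04 in the confluent control arrays to 9.97 and 10.07 in the Tead2-VP16 arrays, or 7.36-fold (SE 0.075 on the log2 scale, adjusted p = 2.41e-08). Low-density control was at 10.06 on average, so the Tead2-VP16 level was near it (difference -0.041, adjusted p = 0.7134). Pde4b, which degrades cAMP, was at 8.41 and 8.52 against 6.299 and 6.19 and rose by 2.22, though only 3 of its 6 probe sets were called. Of 21 cyclic nucleotide genes, 6 rose and 2 fell, against 13.2% and 13.7% of all genes. Only 1 fell without either control array or without Tead2-VP16 replicate 1.

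Ccl2, the monocyte chemokine, was at 9.1 and 9.001 in Tead2-VP16 cells and 6.54 and 6.17 in confluent control, a 6.49-fold rise (adjusted p = 3.47e-07). It was also at 8.945 on average in low-density control (difference 0.106, adjusted p = 0.4908) and at 8.999 with Yap at high density. At matched complete confluency Ccl2 was 0.722 higher with Tead2-VP16 than in control (adjusted p = 0.0030). Ccl7, its relative, rose by 1.83 (adjusted p = 2.93e-07), and Ptgs2, the inducible cyclooxygenase, by 0.94. C1s1, a complement protease, fell by 1.25. In all, 7 of 26 chemokines and inflammatory mediators rose and 3 fell. Lcp1, an actin-bundling protein known from leukocytes, was at 7.15 and 7.46 against 4.85 and 5.203 and rose 4.85-fold (adjusted p = 1.31e-05). Of 8 macrophage markers 1 rose and 1 fell, near the shares of all genes (13.2% higher and 13.7% lower). The mean level of that list was 5.57 in both Tead2-VP16 arrays and 5.52 to 5.54 in confluent control.

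The Id factors Id1, Id2 and Id3, which block basic helix-loop-helix transcription factors and respond to Bmp signals, rose, and so did Smad7. Of 16 genes in the list 7 rose and 0 fell, with a median of 0.23. Id1 was at 10.47 and 10.396 against 8.04 and 8.03, 5.27-fold higher (SE 0.062 on the log2 scale, adjusted p = 2.41e-08). Id2 was at 10.79 and 10.96 against 8.75 and 8.75, 4.35-fold higher, and Id3 rose 2.27-fold. Smad7, an inhibitory Smad, rose by 1.102. The Bmp ligands of the list were not among the called genes: Bmp2 was at 0.073 and Bmp4 at -0.23, names chosen after their values were seen.

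**Figure D2:**
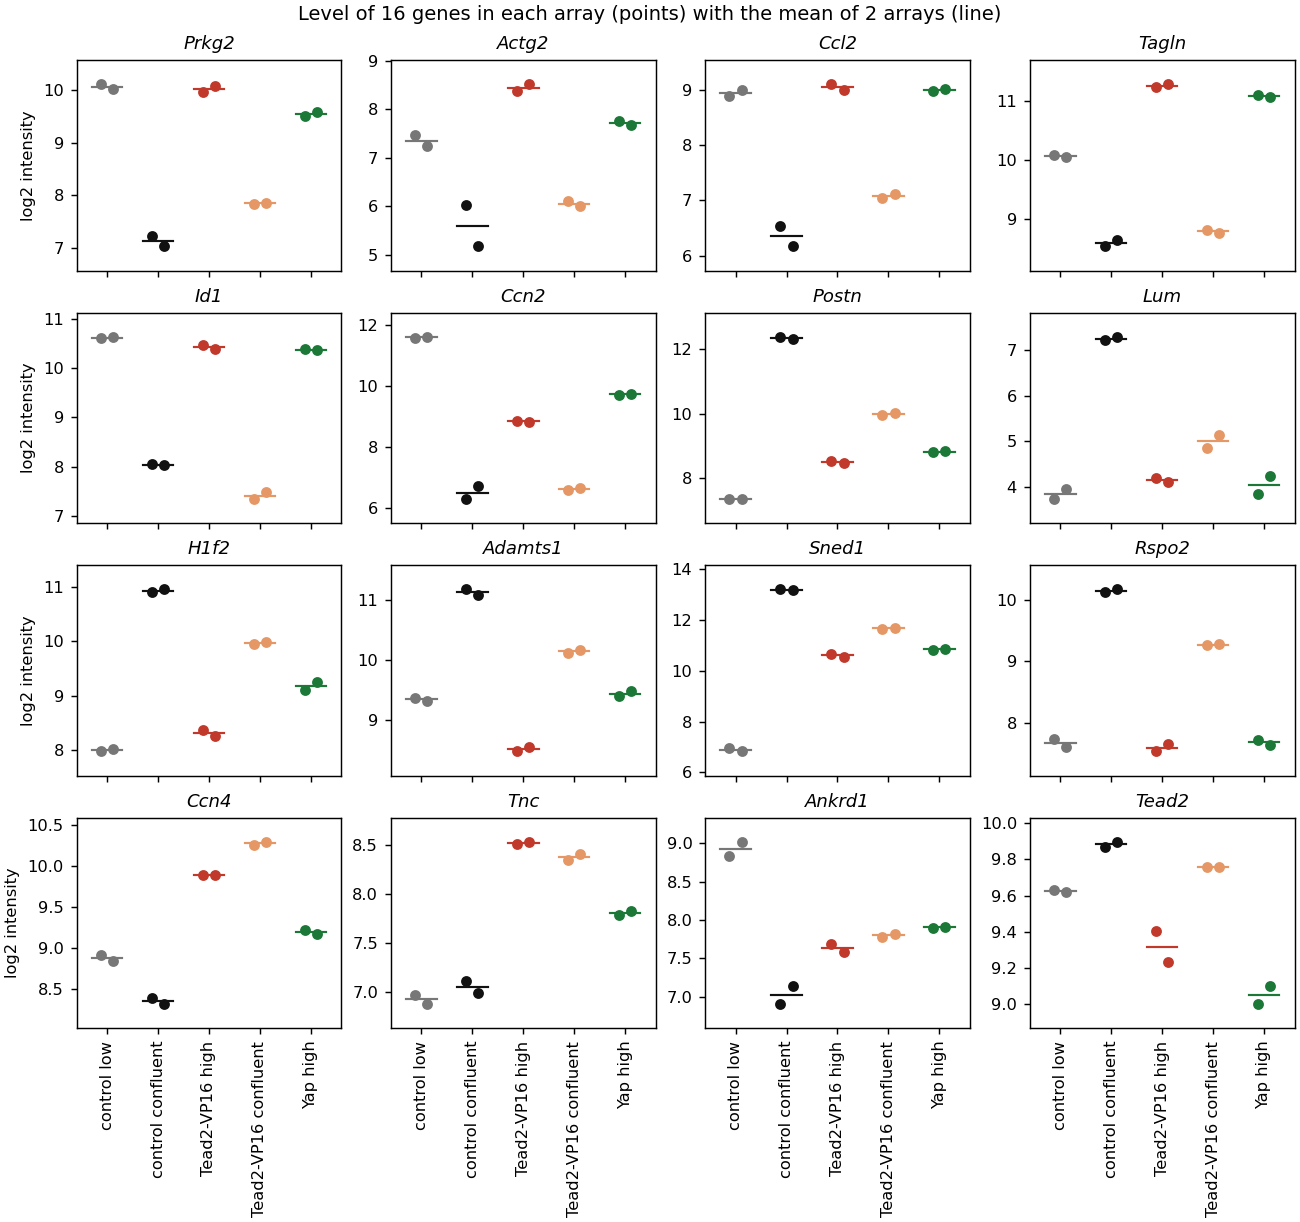
Log2 intensity of 16 genes in each array (points) with the mean of 2 arrays (line), for the low-density and confluent controls, Tead2-VP16 at its high and its complete confluency, and Yap. Id1 lies at 10.47 and 10.396 in Tead2-VP16 cells at high density and at 7.41 on average in the same cells at complete confluency, whereas Ccn4 and Tnc are high at both densities.

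Extracellular matrix genes had several of the largest falls. Postn (periostin), a matricellular protein of fibroblasts, was at 8.52 and 8.47 in the Tead2-VP16 arrays and 12.37 and 12.31 in confluent control, 14.3-fold lower (log2 fold change -3.84, SE 0.062, adjusted p = 2.13e-09). Sned1, a matrix glycoprotein, was at 10.66 and 10.55 against 13.21 and 13.18, 6.02-fold lower. Of 29 matrix glycoproteins 12 fell and 4 rose, with a median of -0.15. The number that fell was 8 to 9 without any 1 array and 9 with arrays centred on their medians. Nid2, a basement membrane nidogen, fell by 1.78. The clearest exception was Tnc (tenascin C), a glycoprotein of remodelling tissue, at 8.51 and 8.54 against 7.11 and 6.99, a 2.78-fold rise (adjusted p = 4.64e-07) on 1 of its 2 probe sets.

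Small leucine-rich proteoglycans, which bind and space collagen fibrils, had 8 of 11 members lower and 0 higher, with a median of -0.61. Lum (lumican) was at 4.198 and 4.099 against 7.22 and 7.295, 8.62-fold lower (adjusted p = 5.30e-07), and in the Tead2-VP16 arrays it lay well below the median gene. Dcn (decorin) stayed abundant, at 11.22 and 11.18 against 13.37 and 13.34, though 4.45-fold lower. Ogn (osteoglycin) fell by 1.28 and Aspn (asporin) by 1.27. A filter that keeps genes above the median level leaves 4 members that fell.

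Among 21 collagen chains 10 fell and 3 rose (median -0.17). The fibrillar chains Col3a1 and Col5a2 fell by 0.66 and 0.53, and Col6a1, of beaded filaments, by 0.67. Col4a1, of basement membranes, rose by 0.78 (adjusted p = 8.89e-06). Of 19 elastic fibre and crosslinking genes 8 fell and 4 rose. Ltbp1 and Mfap5, of microfibrils, fell by 1.26 and 0.52, while Ltbp2 and the crosslinking enzyme Loxl4 rose by 1.05 and 0.82. Of 25 matrix proteases and inhibitors 9 fell and 5 rose. Adamts1, which cleaves proteoglycans, was at 8.48 and 8.56 against 11.17 and 11.08, 6.09-fold lower (adjusted p = 1.93e-08), and below low-density control (9.34 on average). Adamts5 and the protease inhibitor Reck fell by 1.04 and 1.0. Timp1, an inhibitor of metalloproteases, rose by 1.22.

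Other large falls were in secreted or regulatory genes. Rspo2, a secreted enhancer of Wnt signals, was at 7.54 and 7.65 against 10.12 and 10.17, 5.85-fold lower (adjusted p = 2.41e-08), on 1 of its 2 probe sets. Of 28 Wnt genes 9 fell and 1 rose (2 rose without control replicate 1), with a median of -0.14, the frizzled receptors Fzd1 and Fzd4 falling by 0.39 and 0.59 and Fzd7 rising by 0.73. Apod, a lipocalin, fell by 2.29, Lrrc17, a secreted leucine-rich repeat protein, fell by 2.25, and Phex, an endopeptidase of phosphate balance, fell by 2.23. Osr1, a zinc finger factor of mesenchyme, was at 10.37 and 10.62 against 12.79 and 12.64 and fell by 2.22 (adjusted p = 4.91e-07), and its relative Osr2 by 1.24. Of 25 mesenchymal transcription factors 9 rose and 7 fell, with Hmga2, a chromatin protein, rising by 1.56 and Foxc2 falling by 0.66. H1f2, a linker histone, was at 8.38 and 8.27 against 10.91 and 10.96, 6.11-fold lower.

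Growth-arrest genes, which rise as fibroblasts become quiescent, included 19 of 25 that fell and 2 that rose (median -0.46). Gas6, a ligand of TAM receptors, was at 9.92 and 9.94 against 11.36 and 11.38 and fell 2.71-fold (adjusted p = 2.93e-07), on 1 of its 2 probe sets. Pdgfra, the alpha receptor of platelet-derived growth factor, was at 11.23 and 11.26 against 12.95 and 12.73 and fell 3.02-fold on all 3 of its probe sets. Zfp36l1, an RNA decay factor, and Gas2 fell by 1.16 and 1.07. The number that fell was 14 to 15 without any 1 array. Without control replicate 2 or Tead2-VP16 replicate 1, 1 member rose. Among growth factor receptors and Igf binding proteins 10 of 26 fell and 4 rose, and Igfbp4 fell by 1.47 on all 6 of its probe sets. Of this receptor and binding protein list 7 to 8 members fell without any 1 array, and 2 rose without control replicate 2.

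Counts of replication and mitosis genes are set beside the shares of all genes, 13.2% higher and 13.7% lower. Of 37 DNA replication genes 12 rose and 4 fell, with a median of 0.08, and a filter that keeps genes above the median level gave 7 that fell. The promoter of Cdc6, which licenses replication origins, is shown for its E2F motif (TTTCCCGC on the other strand, in capitals), since E2F factors drive replication genes at the start of S phase. It lies at chr11:98907901-98908150 (RefSeq, GRCm38.p6, plus strand).
Cdc6: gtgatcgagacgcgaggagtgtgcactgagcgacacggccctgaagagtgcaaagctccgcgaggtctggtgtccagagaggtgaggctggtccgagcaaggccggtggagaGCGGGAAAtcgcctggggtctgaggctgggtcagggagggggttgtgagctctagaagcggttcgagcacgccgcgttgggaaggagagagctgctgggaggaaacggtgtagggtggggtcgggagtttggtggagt
One of the E2F motifs TTTCCCGC and TTTGGCGC was found in 6 of 30 replication promoters (20.0%), against 2.3% of measured genes. Cdc6 was at 6.97 and 6.93 in the Tead2-VP16 arrays and 6.11 and 6.32 in confluent control and rose by 0.73 (SE 0.081, adjusted p = 1.36e-04). Orc1, also of the origin complex, rose by 0.84, Cdt1 by 0.46 and Pcna, the replication clamp, by 0.49. Of 46 mitosis genes, 10 fell and 4 rose (median -0.08). Top2a, the topoisomerase of dividing cells, was at 8.78 and 8.61 against 9.99 and 10.06 and fell 2.51-fold (adjusted p = 1.41e-06). Mki67, a proliferation marker, was at 7.45 and 7.42 against 8.09 and 8.12 and fell by 0.67, and Bub1b, of the spindle checkpoint, by 0.5. Cdc20, which activates the anaphase complex, rose by 0.44. Without any 1 array 7 to 8 mitosis genes fell. With probe sets averaged per gene 6 fell, which is near the share of all genes.

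The labels describe these Tead2-VP16 cells as proliferating, and the mean level of the mitosis list was 7.64 in both of their arrays, below 7.72 and 7.76 in confluent control. Low-density control was at 10.25 and 10.27. The pocket proteins Rbl2 and Rb1, which hold E2F factors in check, fell by 0.71 and 0.45. In the list of G1 cyclins, E2F factors and pocket proteins 4 of 17 rose and 4 fell, but without either control array 1 rose. The cyclin-dependent kinase inhibitors Cdkn1b (p27), Cdkn2d and Cdkn1c were at -0.42, -0.29 and 0.41 (log2 fold changes), all called. All 3 lost the call without Tead2-VP16 replicate 1, Cdkn1b and Cdkn1c also without control replicate 1, and Cdkn2d also without control replicate 2. The levels of Cdkn1c, 4.145 and 4.077 against 3.573 and 3.831, lay well below the median gene.

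**Figure D3:**
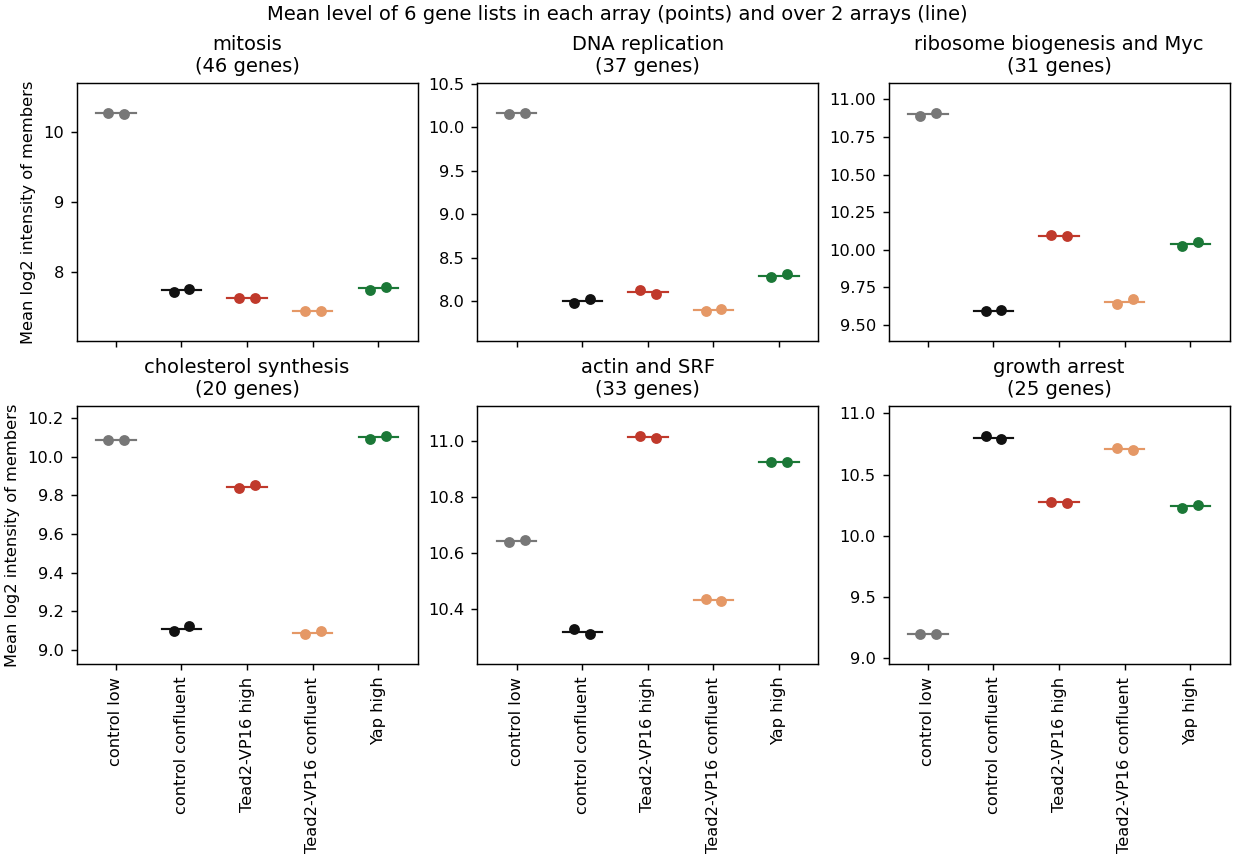
Mean log2 intensity of the members of 6 gene lists in each array (points) and over 2 arrays (line), in the same 5 groups. Tead2-VP16 cells at high density lie with confluent control in mitosis genes (7.64 against 7.72 and 7.76) and far from it in cholesterol synthesis (9.84 and 9.85 against 9.10 and 9.12) and actin and SRF genes (11.02 and 11.01 against 10.33 and 10.31).

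Biosynthetic genes rose widely. In cholesterol synthesis 18 of 20 rose and 0 fell, with a median of 0.67. Idi1, which makes the activated isoprene units, was at 10.82 and 10.94 against 9.22 and 9.34, 3.04-fold higher (SE 0.066 on the log2 scale, adjusted p = 3.95e-07). Insig1, a feedback sensor of sterols, rose by 1.29, Fdps, which makes farnesyl diphosphate, by 1.22 and Cyp51, a sterol demethylase, by 1.02. The classic sterol regulatory element, sought as 1 exact string of 10 letters, occurred in 0 of 16 of these promoters and in 9 of 14452 measured genes (0.0623%), so this exact spelling is rare in windows of this length. Fatty acid synthesis had 7 of 13 higher and 0 lower, including the elongase Elovl6 (0.79).

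Of 31 ribosome biogenesis and Myc genes 26 rose and 1 fell (median 0.55). Srm, which makes spermidine, was at 11.11 and 11.02 against 9.997 and 10.01 and rose 2.09-fold (adjusted p = 4.22e-06). Odc1, the first enzyme of polyamine synthesis, was at 10.77 and 10.77 against 9.91 and 9.87 and rose 1.83-fold, and the nucleolar proteins Nop16 and Nhp2 rose by 0.82 and 0.75. The member that fell was Mycn, at 12.396 and 12.22 against 13.26 and 13.27 (0.96 lower, adjusted p = 2.00e-05), on 1 of its 3 probe sets. On that probe set low-density control was at 7.32 and 7.45. Yap at high density was at 11.19 and Tead2-EnR at low density at 12.56 on average. The further probe sets of Mycn, at mean levels of 3.76 and 5.24, were not called. The reason for this pattern was not tested. Of 18 endoplasmic reticulum chaperones 11 rose and 0 fell, with Dnajb9 at 0.85 and Manf at 0.802. Of 26 hypoxia and glycolysis genes 15 rose and 2 fell. The glucose transporter Slc2a1 was at 11.096 and 11.12 against 10.504 and 10.37 and rose by 0.67, Hk2 and Pfkp, which commit glucose to glycolysis, by 0.74 and 0.75, and Adm, the hypoxia-induced peptide adrenomedullin, fell by 1.03. Of 27 genes of amino acid stress and one-carbon metabolism 14 rose and 2 fell, but 9 rose and 0 fell without control replicate 1, and 8 rose and 1 fell without Tead2-VP16 replicate 1.

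Signalling genes split. In the immediate early and ERK feedback list 11 of 36 rose and 9 fell. The phosphatases Dusp6 and Dusp5, which switch off ERK and are induced by it, rose by 1.62 and 1.39, and the AP-1 factor Fosl1 by 1.14. Fosb, Fos and Jun, also of AP-1, fell by 1.17, 0.897 and 0.75; these 3 were chosen after their values were seen. Of 28 growth factors 12 rose and 5 fell. Csf1, the macrophage growth factor, rose by 0.92, Ereg, a ligand of the EGF receptor, by 0.95 and Edn1 (endothelin) by 0.94. Igf2, a fetal growth factor, was at 6.46 and 6.25 against 7.92 and 7.85 and fell 2.89-fold (adjusted p = 2.92e-05) on 1 of its 2 probe sets. Sema3c, a guidance ligand, fell by 1.3, within a guidance and adhesion list in which 5 of 33 rose and 5 fell. These counts are near the shares of all genes (13.2% higher and 13.7% lower). In the interferon response 7 of 25 fell and 0 rose, among them Ifit3 (-0.796), and 4 fell without control replicate 1 or with arrays centred on their medians.

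**Figure D4:**
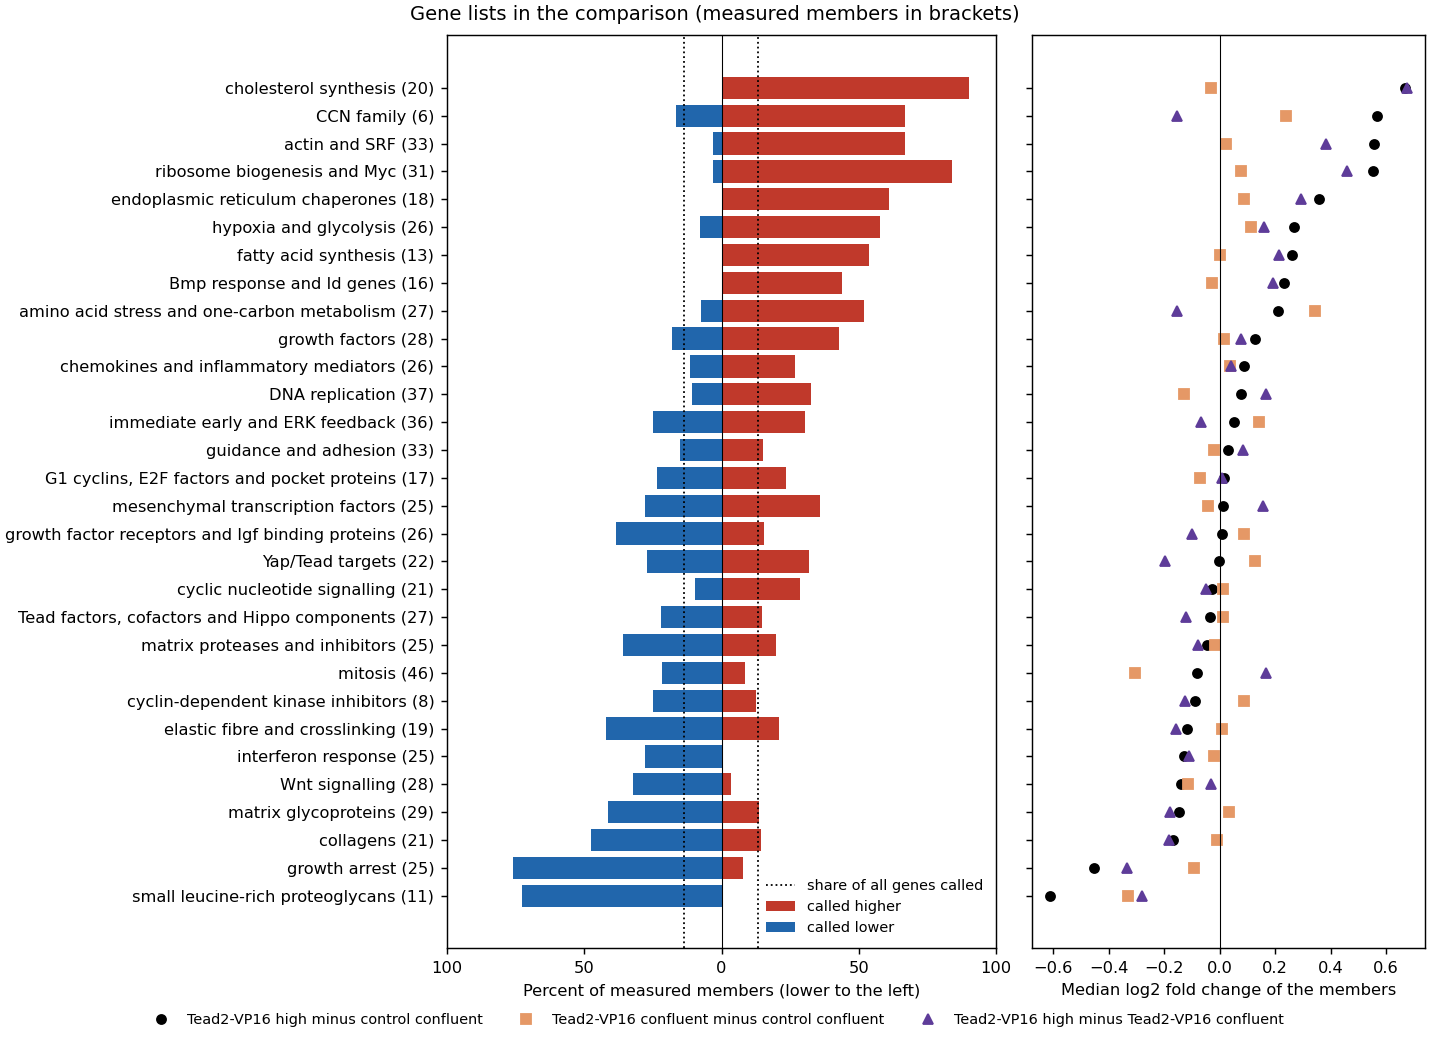
Left, the percent of measured members of each of 30 gene lists that rose (red) or fell (blue) in the comparison, with dotted lines at the share of all genes called (13.2% higher, 13.7% lower). Right, the median log2 fold change of the members in the comparison and in the 2 differences that add up to it, such as 0.67 for cholesterol synthesis in the comparison and -0.03 at matched complete confluency.

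The difference can be written, gene by gene, as the sum of Tead2-VP16 minus control at complete confluency, where density is matched, and Tead2-VP16 at high density minus Tead2-VP16 at complete confluency, where the construct is the same. The first shares its control arrays with the comparison above and the second its Tead2-VP16 arrays, and the identity holds by construction. At matched density 920 genes rose (5.06%) and 895 fell (4.92%), so 50.7% of called genes were higher, or 66.8% with arrays centred on their medians. Without any 1 of its arrays the number called there was 847 to 986, in place of 1815. Between the densities of Tead2-VP16 cells 2261 rose (12.4%) and 2204 fell (12.1%), 4465 in all, or 2765 without the high-density Tead2-VP16 replicate 1.

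Of 33 actin and SRF genes 11 were higher and 3 lower at matched density (median 0.02), against 20 higher and 3 lower between densities (median 0.38). Without any 1 array 6 to 8 were higher and 1 to 2 lower at matched density. Tagln was 0.202 higher at matched density and 2.46 higher at high than at complete confluency within Tead2-VP16 cells. For Ccn2 the values were 0.12 (adjusted p = 0.5730) and 2.22. Id1 was lower at matched density, by 0.62 (adjusted p = 2.96e-04), and higher by 3.02 between densities, and Id2 stood at -0.63 and 2.75. Cholesterol synthesis had 1 higher and 2 lower at matched density (median -0.03) against 18 higher and 0 lower between densities (median 0.67), and without either control array 0 were lower at matched density. Ribosome biogenesis had 1 higher and 1 lower against 25 higher and 2 lower. Growth-arrest genes had 3 higher and 6 lower at matched density (median -0.094) against 1 higher and 17 lower between densities (median -0.335). At matched density 2 to 3 of these were higher and 2 to 3 lower without any 1 array.

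Of the matrix lists, small leucine-rich proteoglycans had 7 of 11 lower and 1 higher at matched density, and 6 lower and 1 higher between densities. Without any 1 array 4 to 5 were lower at matched density. The other matrix lists had similar numbers in both directions at matched density, with 4 collagens higher and 3 lower of 21 (1 to 2 and 0 to 2 without any 1 array), and 7 matrix glycoproteins higher and 6 lower of 29 (4 to 5 higher without any 1 array). Between densities 11 collagens were lower and 1 higher (7 to 9 lower without any 1 array), and 12 glycoproteins lower and 2 higher. Postn was lower by 2.36 at matched density and by 1.48 between densities, Lum by 2.26 and 0.85, and Dcn by 0.89 and 1.26. A further 5 genes are given as examples of those that differed more at matched density, not as a full count. Ccn4 was 1.92 higher there (adjusted p = 1.63e-07) and at -0.39 between densities, Tnc at 1.34 and 0.14, Edn1 at 1.201 and -0.26, Slc2a1 at 1.28 and -0.61, and Igf2 at -1.63 and 0.103. In Sema3c and Adm the differences opposed each other, 0.51 and -1.81 for Sema3c and 0.63 and -1.66 for Adm. Among Yap/Tead targets 7 of 22 rose and 0 fell at matched density, where Ankrd1 rose by 0.78 and Ccn1 by 0.99, and 4 to 5 rose without any 1 array. The Ccn1 value is that of 1 of its 4 probe sets, which disagreed against confluent control at unmatched density. The other probe sets are not given at matched density. Between densities 5 rose and 10 fell. In the mitosis list 27 of 46 fell and 1 rose at matched density (median -0.31), while 18 rose and 2 fell between densities (median 0.17). Without any 1 array 13 to 16 fell at matched density, and without the high-density Tead2-VP16 replicate 1, 11 rose between densities. The amino acid stress list had 17 of 27 higher and 0 lower at matched density, and 2 higher and 10 lower between densities.

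**Figure D5:**
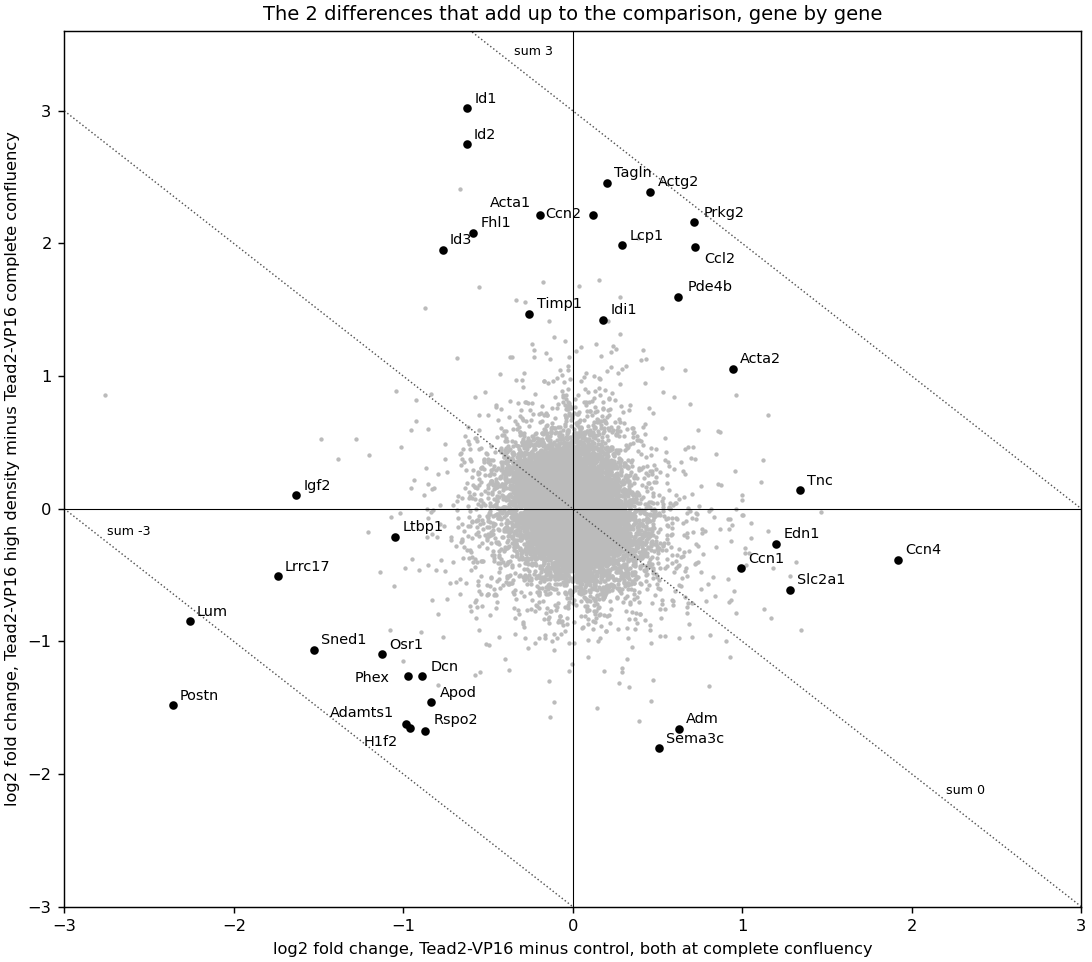
Each point is a gene, with its log2 fold change at matched complete confluency (Tead2-VP16 minus control) on the horizontal axis and between densities within Tead2-VP16 cells on the vertical axis, so that the diagonals join genes of equal sum. Id1 lies at the top left (-0.62 and 3.02), Ccn4 at the right (1.92 and -0.39) and Postn at the bottom left (-2.36 and -1.48).

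Against low-density control, where both vector and density differ, 4260 genes rose (23.4%) and 3546 fell (19.5%) in Tead2-VP16 cells at high density. All 37 replication genes (median -1.99) and all 46 mitosis genes (median -2.74) were lower. Bub1, Ect2, Birc5 and Tk1 fell by 3.57, 3.21, 3.18 and 3.26. Growth-arrest genes were higher in 21 of 25 cases and lower in 3 (median 1.23), and ribosome biogenesis was lower in 30 of 31 and higher in 1. The exception was Mycn, higher by 4.92 (adjusted p = 5.70e-10) on the probe set used. Of 21 collagens 16 were higher and 1 lower, of 29 matrix glycoproteins 18 and 1, and of 11 small leucine-rich proteoglycans 5 and 0. Among matrix genes that fell against confluent control, Sned1, Dcn and Postn were higher than in low-density control, by 3.71, 3.65 and 1.13. Lum stood at 0.31 (adjusted p = 0.1014), and Adamts1, Ltbp1 and Col5a2 were lower, by 0.83, 0.63 and 0.21. Ccn2 was lower than in low-density control by 2.76 (adjusted p = 2.51e-08), so its level lay between the controls. Tagln was higher than in either control, by 1.18 over low density. Of 33 actin and SRF genes 22 were higher and 7 lower.

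Tead2-VP16 and Yap were harvested at the same labelled density. Between them 197 genes were higher (1.08%) and 170 lower (0.934%) with Tead2-VP16, and 2 and 6 of these by at least 2-fold. Of called genes 53.7% were higher, or 65.5% with arrays centred on their medians. The total of 367 fell to 86 without Tead2-VP16 replicate 1, 188 without its replicate 2, and 95 and 81 without Yap replicate 1 and 2. Lcp1 was higher with Tead2-VP16 by 1.29 (adjusted p = 0.0060) and Mycn by 1.12 (adjusted p = 2.68e-04). Ogn was lower by 1.26 (adjusted p = 1.62e-05) and Fhl1 by 1.18 (adjusted p = 6.02e-05). Among Yap/Tead targets 6 of 22 were lower and 2 higher, with Ccn2 lower by 0.898 (adjusted p = 0.0032) and Ccn1 by 0.46 on the probe set used. Cholesterol synthesis was lower in 7 of 20 genes and higher in 0 (median -0.26), and DNA replication was lower in 9 of 37 and higher in 0. These counts were smaller without any 1 array: 3 to 4 targets lower and 0 to 1 higher, 2 to 3 cholesterol genes lower and 0 to 2 replication genes lower. For Id1, Prkg2 and Tagln the differences between the constructs were 0.063, 0.48 and 0.17, with adjusted p of 0.7302, 0.0134 and 0.1898. The call of Prkg2 was lost without any 1 of these 4 arrays.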

How the data were processed

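RNA of NIH3T3 cells was hybridised to 12 Affymetrix arrays. The values are probe set intensities deposited by the authors, made with RMA per the submitters' processing notes, which give no version. They ran from 3.77 to 25980 and so were on a linear scale, and log2 was taken. The genome build is not given in the sources used here. Of 45101 probe sets 34945 had exactly 1 gene symbol, 932 several and 9160 none, and 64 were controls. Each gene was represented by its brightest probe set, judged by the mean of 12 arrays (9010 genes had several), which gave 18193 genes with no filter on level. Entrez identifiers of 34741 probe sets matched a RefSeq table (GRCm38.p6), which changed 0 symbols.

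In R 4.3.3, limma 3.58.1 fitted a mean for each group over all 12 arrays and moderated the variances (eBayes), with 6 residual degrees of freedom and a prior worth 3.45. P-values are two-sided, with Benjamini-Hochberg adjustment over all genes of a comparison (5 comparisons) and a threshold of 0.05. Differences are given as first group minus second group, with the fit's SE. The code was tested on simulated data. Python 3.11.15 and matplotlib 3.10.9 drew the figures.

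The labels do not pair cultures by replicate number, so no block was used in the main fit (see the closing section). Named genes were the 10 largest rises and 10 largest falls of at least 2-fold that were called, had separate arrays in the groups and exceeded the median gene in the higher group (unnamed clones left out). Tead2, Yap1, Ccn1, Ccn2, Ankrd1, the 4 best called members of every list by adjusted p (fewer where fewer were called), and the 4 largest rises and falls of the other comparisons among these and list genes were added. Of 811 entries in 30 pathway and 6 marker lists, 772 were measured. Lists are described by counts and medians, with no set test. The comparison, the lists and the named-gene rule were chosen with earlier results of these data known. Motifs were sought in the 250 bases before each gene start in a RefSeq promoter table, on both strands.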

Additional observations from a re-analysis of the deposited data

Results flagged for a closer look

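The difference between Tead2-VP16 at high density and confluent control was set against the difference that other groups showed from the same confluent control. With the shared control cancelling, 4465 genes differed between the high-density and the completely confluent Tead2-VP16 cells, and 367 between Tead2-VP16 and Yap at high density (limma, adjusted p below 0.05). Of the named genes, 4 differed by at least 2-fold between Tead2-VP16 and Yap at the same labelled density. Lcp1 was higher with Tead2-VP16 by 1.29 and Mycn by 1.11, whereas Ogn was at -1.25 and Fhl1 at -1.18 (log2 fold changes). For Fhl1 1 of 2 probe sets and for Mycn 1 of 3 was called in the comparison with confluent control.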

How the results depend on the processing

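The number of genes called against confluent control was 4893, between 3496 and 3875 without any 1 array, 8125 when every probe set was tested and 218 with a 2-fold change required as well. At matched complete confluency the 1815 called became 859 with only the arrays compared, 2795 with a variance trend and robust prior, 847 to 986 without any 1 array and 44 with a 2-fold change. Between the densities of Tead2-VP16 cells 4465 became 7202 with every probe set, 108 with a 2-fold change and 2765 to 3411 without any 1 array. Against low-density control 7806 became 13726 with every probe set, 1307 with a 2-fold change and 6895 to 7285 without any 1 array. Against Yap 367 became 759 with every probe set, 986 with genes above the median level, 711 with 16 added before log2, 78 with only the arrays compared, 1058 with the trend and robust prior, 8 with a 2-fold change and 81 to 188 without any 1 array. The cause was not tested beyond the change in genes or arrays that each setting makes.

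Deviations of same-numbered arrays from their group means correlated between -0.061 and 0.101 across pairs of groups. These weak correlations do not settle whether the numbers pair the arrays. In every group the spiked poly-A controls were higher in replicate 2, for example 8.48 against 8.38 in Tead2-VP16 at high density. In confluent control they were at 8.81 against 8.61. With the replicate number as a block, 4834, 1630, 4377, 7766 and 339 genes were called in the 5 comparisons, in the order above. With probe sets averaged per gene, Ccn1 turned to -0.291 and Cdk6 to -0.12, and Cdkn1b, E2f3, Insr and Bub1 were no longer called. Of 129 named genes called, 120 were tested when genes were filtered on level, and all 120 kept direction and call. The list counts without single arrays in the other comparisons were added after seeing the data. No detection calls were used here, so signal over background was not measured.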
